A study of Homo sapiens with 84 samples.

Results

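The EGF receptor family and its ligands were described at the level of mRNA in Kyse30 and FaDu cells. The 9 genes were taken by symbol from 58395 counted genes and comprised the receptors EGFR, ERBB2, and ERBB3 and the ligands AREG, EREG, HBEGF, TGFA, BTC, and EPGN. Both are established lines of squamous cell carcinoma, Kyse30 from the esophagus and FaDu from the hypopharynx. Cells of every group had been starved of serum for a day before treatment and stayed without serum. They were left untreated (Ctrl) for 0, 6, or 72 h, or were treated for 6 or 72 h with Fc (the Fc part of an immunoglobulin, the control of EpEX), EpEX (the extracellular domain of EpCAM fused to Fc), EGFlow (1.8 nM EGF), EGFhigh (9 nM EGF), or EGFhigh+EpEX. Both lines are single cell lines grown as monocultures, so differences between the lines compare 2 lines only. The values cover all 43 Kyse30 libraries and the 20 FaDu libraries of replicates 3 and 4.

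Members of this family pass signals across the plasma membrane. EGFR, ERBB2, and ERBB3 are single-span receptor tyrosine kinases that pair with one another once a ligand has bound. ERBB2 has no known soluble ligand, and ERBB3, which binds neuregulins, has a weak kinase and signals through its partners. The ligands are made as membrane-bound precursors, and proteases such as ADAM17 shed the active growth factor from the cell surface. Ligand binding activates the MAPK and PI3K pathways, and internalized EGFR is tagged by the ubiquitin ligase CBL and degraded. Genes of several ligands are known early targets of the same pathway, which closes an autocrine loop in epithelial cells, and EGFR is often amplified or overexpressed in squamous cell carcinoma.

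Libraries were prepared from the 3′ ends of transcripts, so that counts do not grow with transcript length. Counts on genes ranged from 1944948 to 11759799 per Kyse30 library and from 6217938 to 12442349 per FaDu library, and 3 counts corresponded to between 0.241 and 1.54 CPM (counts scaled to a common library total). These limits cover counting error only, since the use of molecular identifiers is not stated. The 21 FaDu libraries of replicates 1 and 2 stood apart from the others and were left out. In plain CPM, EGFR ranged from 8.03 to 2125 and ERBB2 from 25.5 to 2811 in them, against 296 to 945 and 37.3 to 126 in replicates 3 and 4. All 8 squamous epithelial markers had a median of at least 1 CPM in FaDu and 7 of 8 in Kyse30, whereas 4 of 5 immune markers, PTPRC, CD3E, and LYZ among them, had a median of 0 CPM in both lines. The fifth, CD68, had a median of 0.503 CPM in Kyse30 and 0.718 CPM in FaDu. The 3 endothelial markers summed to 0 to 7.41 CPM in Kyse30 and 0.406 to 9.60 CPM in FaDu, with medians of 1.83 and 4.52 CPM for CDH5 and 0 CPM in both lines for PECAM1. The summed fibroblast markers ranged from 10.1 to 44.5 CPM in Kyse30 and from 7.14 to 15.7 CPM in FaDu, with 3 of 6 genes at a median of 0 CPM. In each line 2 of the 6 had a median of at least 1 CPM. In Kyse30 the keratins KRT5, KRT14, and KRT17 had low medians of 2.08, 0.712, and 11.8 CPM. Those of COL1A1 and COL1A2 were 13.9 and 5.06 CPM. The other squamous markers in Kyse30 had medians from 18.6 CPM (TP63) to 779 CPM (SFN). The labels do not say that replicates were separate cultures, so p-values measure the spread between libraries, which may be technical. In bulk RNA, fewer cells that express a gene and less RNA per cell cannot be told apart.

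In Kyse30, EGFR was the most abundant member, with 1412 to 4791 CPM and a median of 2483 CPM. AREG, the ligand amphiregulin, followed with 146 to 1234 CPM (median 274). EREG (epiregulin), ERBB3, ERBB2, HBEGF (heparin-binding EGF-like growth factor), and TGFA (transforming growth factor alpha) had medians of 65.4, 58.8, 52.9, 49.3, and 36.4 CPM. BTC (betacellulin) and EPGN (epigen) were near the limit of the libraries, with medians of 1.59 and 0.838 CPM, and 4 and 15 of 43 libraries had under 3 counts of them. FaDu expressed the same receptors, with medians of 557 CPM for EGFR, 58.5 CPM for ERBB2, and 41.2 CPM for ERBB3. Medians of 4 ligands were lower than in Kyse30, with 38.8 CPM for AREG, 25.2 CPM for HBEGF and for TGFA, and 2.51 CPM for EREG, and the median of BTC was higher, with 2.71 CPM. EPGN had at most 1 count in any FaDu library and 0 in 15 of 20. Since 3′ counts are not tied to length, these levels can be set side by side between genes, apart from differences in priming.

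The summed level of the 6 ligands was 322 ± 101 CPM (SD, n = 3) in untreated Kyse30 at 6 h and 1284 ± 223 CPM (n = 4) with EGFhigh. In FaDu it was 75.6 ± 24.7 CPM (n = 2) in untreated cells at 6 h, 633 ± 324 CPM (n = 2) with EGFhigh, and 818 ± 329 CPM (n = 2) with EpEX. AREG made up 46.8 to 82.7% of this sum in the Kyse30 libraries and 17.6 to 68.6% in the FaDu libraries.

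The 9 genes lie on 6 chromosomes of the GRCh38 build, in the coordinates of GENCODE release 29. EGFR (ENSG00000146648) lies at chr7:55019021-55211628, ERBB2 (ENSG00000141736) at chr17:39687914-39730426, and ERBB3 (ENSG00000065361) at chr12:56076799-56103505. HBEGF (ENSG00000113070) lies at chr5:140332843-140346631 and TGFA (ENSG00000163235) at chr2:70447280-70554193. The other ligand genes form a cluster on chromosome 4 that spans 486 kb, in the order EPGN (ENSG00000182585, chr4:74308473-74315307), EREG (ENSG00000124882, chr4:74365143-74388751), AREG (ENSG00000109321, chr4:74445134-74455009), and BTC (ENSG00000174808, chr4:74744759-74794686). Counts of ERBB2 may be affected by PGAP3 and MIEN1, which overlap it on the opposite strand, because the strand setting of the counting is not stated. Reads in the shared stretches could be assigned to either gene or left uncounted.

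AREG, EREG, and HBEGF are the ligands called up with EGFhigh at 6 h in both lines. The 150 bases before their RefSeq start sites (GRCh38.p14) are shown for that reason. TGFA was also higher with EGFhigh at 6 h in both lines but missed the threshold, and its window is not shown. Capitals mark matches to TGACGTCA (the cyclic AMP response element, CRE), its core TGACG, and TATAAA (the TATA box), searched on both strands, where the core is contained in the full element. TGANTCA, the AP-1 motif, was also searched, and it reads as itself on the opposite strand.
AREG, plus strand, chr4:74444986-74445135: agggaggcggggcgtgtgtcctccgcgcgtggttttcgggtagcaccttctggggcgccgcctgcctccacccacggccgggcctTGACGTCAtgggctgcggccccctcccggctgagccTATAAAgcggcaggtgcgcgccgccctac
EREG, plus strand, chr4:74364995-74365144: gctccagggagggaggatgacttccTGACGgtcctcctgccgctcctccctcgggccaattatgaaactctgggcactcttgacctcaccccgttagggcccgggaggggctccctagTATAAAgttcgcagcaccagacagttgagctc
HBEGF, minus strand, chr5:140346604-140346753: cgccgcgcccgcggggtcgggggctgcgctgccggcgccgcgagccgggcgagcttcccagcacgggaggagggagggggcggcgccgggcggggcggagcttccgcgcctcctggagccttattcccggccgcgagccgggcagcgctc

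The AREG window held a full CRE whose first base is at -65 and a TATA box at -29 from the start. EREG held the core alone at -125 and a TATA box at -32, and none of these letters occurred in the HBEGF window. Among 34943 RefSeq promoter windows of 300 bases (250 before to 50 after the start), 1.84% held TGACGTCA, 24.5% TGACG, 11.6% TATAAA, and 7.72% TGANTCA. None of the 3 ligands had TGANTCA in its window of 300 bases. These matches describe letters and not binding.

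Treatments of Kyse30 were compared with the control of the same time point, EGF with Ctrl and EpEX and EGFhigh+EpEX with Fc, over 15350 genes. A gene was called differentially expressed (DEG) at an adjusted p of at most 0.05 in edgeR's quasi-likelihood test and an absolute log2 fold change (log2FC) over 0.5. All 9 members passed the filter on low counts. Where groups are said not to overlap, here and in FaDu, this describes the libraries only. The share of all genes without overlap was not computed, and groups this small can separate by chance. At 6 h, EGFhigh had 4 members among its DEGs (AREG, EREG, and HBEGF up, ERBB3 down), where 2.55% of all genes were called. With EGFhigh+EpEX, 2 members were called (HBEGF up, ERBB3 down), beside 4.52% of all genes. With EGFlow, 0 members passed beside 1.5% of all genes, although 6 had an unadjusted p under 0.05 and DESeq2 called 2 (AREG and EGFR). Other settings of edgeR also gave calls with EGFlow. With the replicate number as a block, AREG, HBEGF, and EGFR were called among 417 genes. A fit of only the groups compared called AREG, HBEGF, and TGFA among 359 genes. With Ctrl and Fc together, AREG, HBEGF, and ERBB3 were called among 776 genes. With EpEX, 0 members passed beside 0.0261% of all genes, 5 had an unadjusted p under 0.05, and DESeq2 called 0. The median log2FC of the 9 members at 6 h was 0.88 with EGFhigh, 0.58 with EGFlow, 0.56 with EpEX, and 0.51 with EGFhigh+EpEX, against medians of all genes between -0.05 and -0.01. With EGFhigh and EGFlow this median was the value of BTC (0.88 ± 0.87 and 0.58 ± 0.86), which was near the limit of the libraries and not called.

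At 72 h, EGFhigh had 3 members among its DEGs (AREG and TGFA up, EGFR down), beside 6.2% of all genes. EGFlow, EpEX, and EGFhigh+EpEX had 0 members and 0% of all genes called by edgeR at 72 h, with 0, 1, and 0 members and 439, 554, and 601 genes at an unadjusted p under 0.05, and DESeq2 called 0 members in each. The median log2FC of the members with EGFhigh at 72 h was 0.01, against -0.03 for all genes. Fc differed from Ctrl in 0 members and 0% of genes at 6 h and likewise in 0 members and 0% of genes at 72 h, with 0 members under an unadjusted p of 0.05 and 0 called by DESeq2. Ctrl and Fc each serve several of these comparisons, so the comparisons are not independent of each other.

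**Figure D1:**
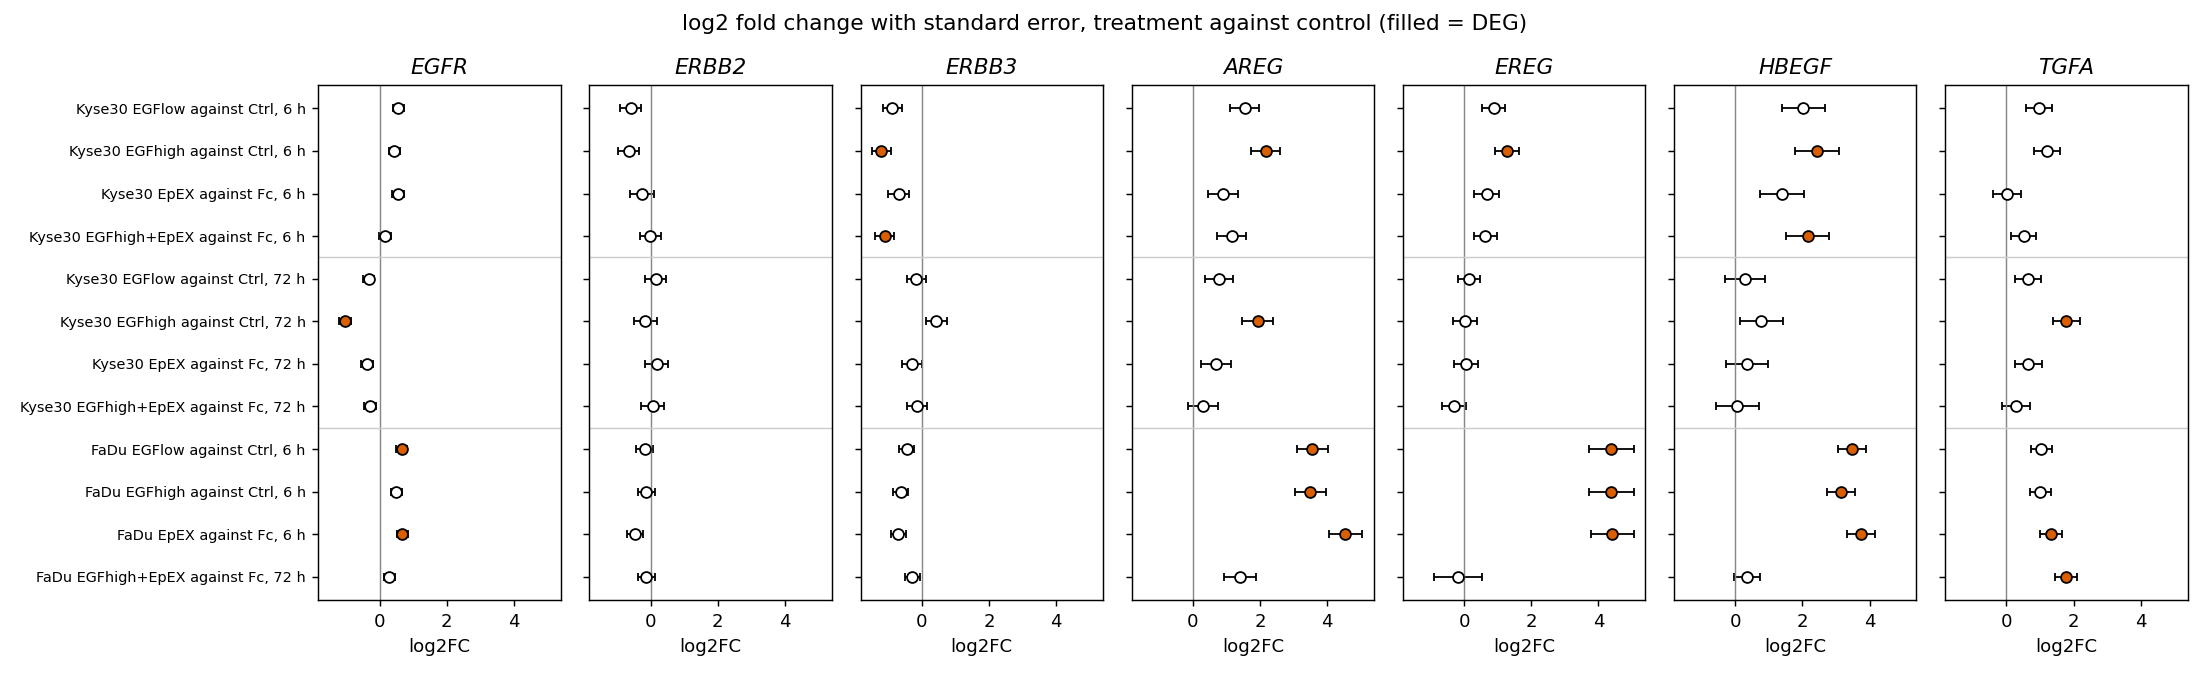
Log2FC (x axis, bars are standard errors) of 7 members for each treatment against its control (y axis), with filled points for DEGs. In FaDu at 6 h AREG, EREG, and HBEGF lie between 3.16 and 4.54, and in Kyse30 at 72 h EGFR with EGFhigh lies at -1.03.

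EGFR mRNA rose during culture of untreated Kyse30. It was 2136, 1553, and 1412 CPM in the Ctrl libraries at 0 h, 1698, 1552, and 1482 CPM at 6 h, and 3651, 3799, and 4582 CPM at 72 h. All libraries of 72 h lay above all of 0 and 6 h. The log2FC from 6 to 72 h was 1.37 ± 0.19 (SE, adjusted p = 2.01e-05, edgeR), a 2.59-fold difference, and EGFR was the only member called in this comparison, where 1.55% of all genes were. From 0 to 6 h, 0 members and 0% of genes were called by edgeR, 0 members had an unadjusted p under 0.05, and DESeq2 called 0 members. The Fc libraries of 72 h had 3663, 4156, and 4791 CPM and overlapped Ctrl.

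EGFR fell with EGFhigh at 72 h against Ctrl of the same time. The EGFhigh libraries had 1815, 2287, and 1918 CPM, all below the Ctrl libraries, which gave a log2FC of -1.03 ± 0.18 (adjusted p = 0.000234), a 2.05-fold difference. At 6 h, by contrast, the EGFhigh libraries had 2224, 2064, 2306, and 2056 CPM and were all above Ctrl, with a log2FC of 0.44 ± 0.17 that missed the threshold (adjusted p = 0.179). The difference between both responses to EGFhigh, a test added after the values had been seen, was -1.47 ± 0.25 (adjusted p = 0.00106). In this test 2 members were called (EGFR lower and ERBB3 higher at 72 h), beside 1.01% of all genes. Leaving out any 1 library kept these calls of EGFR against Ctrl and between the times, with log2FC values from -1.15 to -0.91 and from -1.60 to -1.36.

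The other treatments were not called for EGFR at 72 h. EGFlow gave 3094, 3314, 3885, and 2771 CPM, EpEX 3001, 3201, and 3524 CPM, and EGFhigh+EpEX 3535, 3355, and 3397 CPM. All of these libraries lay above those of EGFhigh, EGFlow overlapped Ctrl, and EpEX and EGFhigh+EpEX lay below every Fc library. The log2FC against their own controls (-0.32 ± 0.17, -0.38 ± 0.18, and -0.29 ± 0.18) missed the threshold. Of 12 neighbouring pairs in the order of the 13 Kyse30 group means of EGFR, 10 overlapped, and the gaps lay between Ctrl of 72 h and EGFhigh+EpEX of 72 h and between EpEX of 72 h and EpEX of 6 h.

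**Figure D2:**
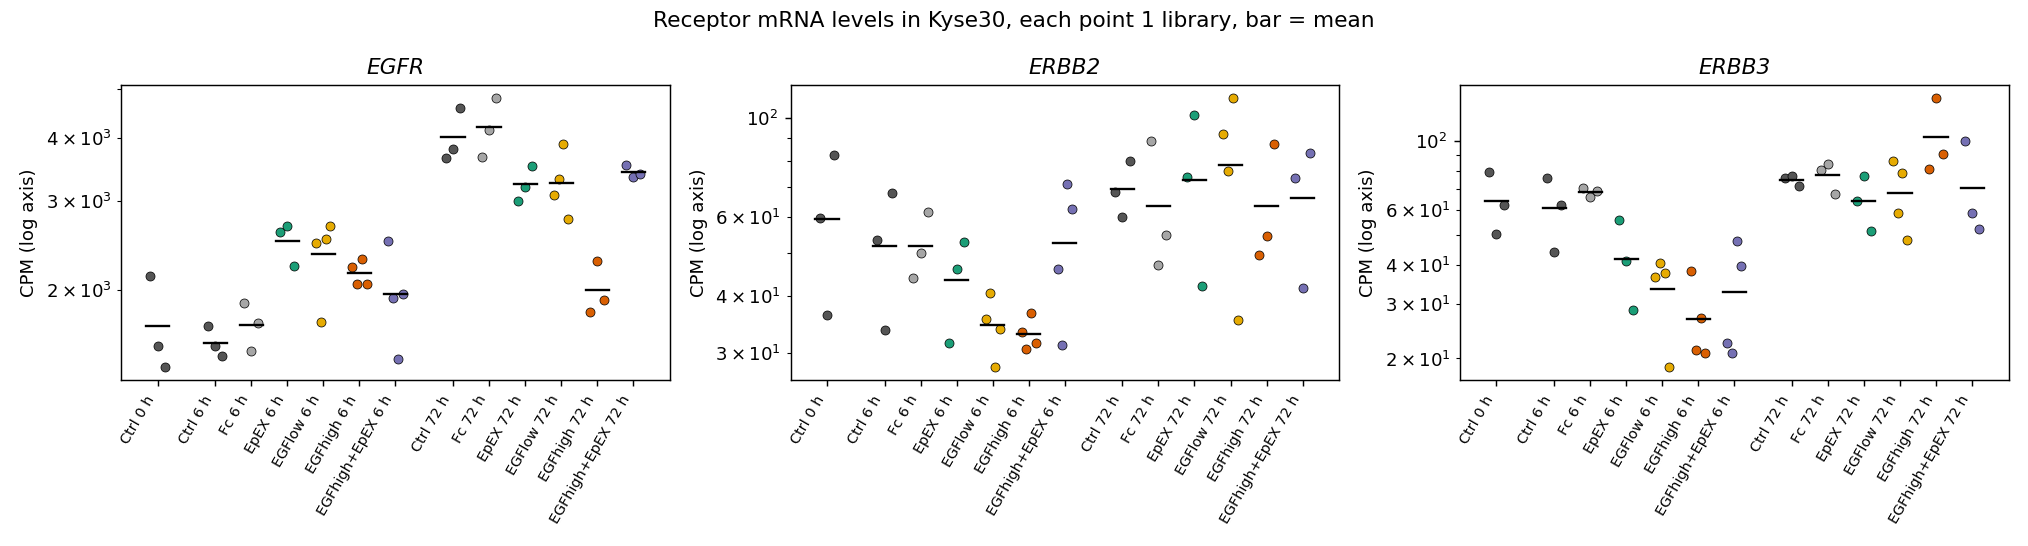
Levels of EGFR, ERBB2, and ERBB3 (y axis, CPM on a log scale) in each Kyse30 library, grouped by treatment and time (x axis), with bars for group means. EGFR libraries of 72 h lie between 2771 and 4791 CPM except for the 3 of EGFhigh, which lie between 1815 and 2287 CPM.

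Direct comparisons between treatments at 72 h gave calls in EGFR and TGFA. Against EGFlow, EGFhigh had 1 member called, EGFR, with a log2FC of -0.71 ± 0.17 (adjusted p = 0.0113), beside 3.73% of all genes. Against EGFhigh, EGFhigh+EpEX had 2 members called beside 3.58% of all genes, with EGFR higher by a log2FC of 0.80 ± 0.18 (adjusted p = 0.00671) and TGFA lower by -1.40 ± 0.41 (adjusted p = 0.0428). Against EGFhigh, EpEX had 1 member called, EGFR, with 0.71 ± 0.18 (adjusted p = 0.0145), beside 4.78% of all genes. These comparisons share the 3 EGFhigh libraries of 72 h, and 3 of the 4 calls of EGFR and TGFA were lost without its replicate 4 and all 4 without its replicate 1. Without replicate 1 the log2FC values were -0.60, 0.71, and 0.61 for EGFR in the order given and -1.04 for TGFA, and without replicate 4 the lost ones were -0.67 and 0.68 for EGFR and -1.51 for TGFA. Further calls were lost without EGFlow replicate 3 (-0.58 for EGFR against EGFlow), without EpEX replicate 2 or 4 (0.73 or 0.64 for EGFR), and without EGFhigh+EpEX replicate 2 or 3 (-1.22 or -1.28 for TGFA). In fits of only the groups compared, none of the 4 was called, while 1 other member was, AREG in EGFhigh+EpEX against EGFhigh (-1.42). Over all genes these fits called 241, 194, and 252 in the order of the comparisons, against 573, 550, and 734 in the reported fit.

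At 6 h no member was called between treatments. EGFhigh against EGFlow had 0 members and 0% of genes called, with 0 members at an unadjusted p under 0.05. EGFhigh+EpEX against EGFhigh had 0 members and 0% of genes called, with 2 members at an unadjusted p under 0.05, and EpEX against EGFhigh had 0 members beside 0.00651% of genes, with 3 at an unadjusted p under 0.05. DESeq2 called 0 members in each. For AREG, EGFhigh differed from EGFlow by a log2FC of 0.61 ± 0.38 and EpEX from EGFhigh by -1.14 ± 0.43. Every EpEX library was below every EGFhigh library in AREG, HBEGF, and TGFA, and the groups of EGFhigh and EGFlow overlapped in all 9 members. Overlap was not counted over all genes, so no share stands beside these.

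ERBB3, the partner receptor that binds neuregulins, fell with EGFhigh and with EGFhigh+EpEX at 6 h. It was 76.3, 44.0, and 62.5 CPM in Ctrl and 38.3, 21.3, 27.0, and 20.8 CPM with EGFhigh at 6 h, with no overlap. The log2FC was -1.21 ± 0.29 (adjusted p = 0.0137), a 2.31-fold difference. With EGFhigh+EpEX it was 22.4, 20.8, 47.7, and 39.6 CPM against 70.5, 66.1, and 69.0 CPM in Fc (-1.10 ± 0.28, adjusted p = 0.0172). EGFlow gave 36.5, 40.6, 37.6, and 18.8 CPM, also below every Ctrl library, and missed the threshold (-0.88 ± 0.28, adjusted p = 0.110). At 72 h the EGFhigh libraries had 81.3, 137, and 91.3 CPM and were all above Ctrl with 76.1, 77.1, and 71.8 CPM (0.43 ± 0.30, adjusted p = 0.461), and the response at 72 h differed from that at 6 h by 1.64 ± 0.42 (adjusted p = 0.036).

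Each call of ERBB3 was lost in some omissions of 1 library, although the sign was kept in every omission. The call with EGFhigh at 6 h was lost without Ctrl replicate 1 or 4 (-1.01 or -1.19) and without EGFhigh replicate 2 or 4 (-1.10 or -1.09). The one with EGFhigh+EpEX was lost without Fc replicate 1 or 4 (-1.08 or -1.06) or EGFhigh+EpEX replicate 1 or 2 (-0.92 or -0.91). It was also lost in the fit of only the groups compared, which called 209 of 12587 genes. The difference between times was lost in 9 of 13 omissions, with values from 1.36 to 1.86 over all of them.

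ERBB2, the receptor without a soluble ligand, was not called in any comparison. It was 53.5, 33.7, and 68.0 CPM in Ctrl at 6 h and 33.3, 30.5, 36.7, and 31.6 CPM with EGFhigh, and the groups overlapped (-0.66 ± 0.32, adjusted p = 0.307). Its 13 group means in Kyse30 ranged from 33.0 CPM (EGFhigh at 6 h) to 78.5 CPM (EGFlow at 72 h), and all 12 neighbouring pairs overlapped.

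AREG, which is shed by ADAM17, rose with EGFhigh at 6 h in Kyse30. Ctrl libraries of 6 h had 146, 169, and 327 CPM, and those of EGFhigh 984, 871, 777, and 1234 CPM, without overlap. The log2FC was 2.16 ± 0.44 (adjusted p = 0.00463), a 4.47-fold difference, and it stayed called without any 1 library, between 1.95 and 2.60. EGFlow gave 688, 224, 509, and 1109 CPM, with replicate 2 within the range of Ctrl (1.55 ± 0.43, adjusted p = 0.055). EpEX gave 292, 384, and 593 CPM against 173, 205, and 306 CPM in Fc (0.91 ± 0.45, adjusted p = 0.528), and EGFhigh+EpEX 961, 534, 228, and 355 CPM (1.15 ± 0.43, adjusted p = 0.113).

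EREG and HBEGF rose with EGFhigh at 6 h as well. EREG was 47.8, 44.5, and 61.2 CPM in Ctrl and 139, 132, 106, and 124 CPM with EGFhigh (1.28 ± 0.34, adjusted p = 0.0324). HBEGF, which anchors to heparan sulfate, was 23.6, 16.3, and 20.8 CPM in Ctrl and 137, 91.1, 98.6, and 113 CPM with EGFhigh (2.43 ± 0.65, adjusted p = 0.0315), a 5.38-fold difference. In both genes every EGFhigh library exceeded every Ctrl library. EGFlow gave 95.6, 49.5, 84.8, and 151 CPM of EREG (0.88 ± 0.34, adjusted p = 0.211). HBEGF with EGFlow was 116, 14.9, 85.8, and 116 CPM (2.02 ± 0.64, adjusted p = 0.103). Replicate 2 of EGFlow did not exceed the range of Ctrl in either gene. The call of EREG was lost without Ctrl replicate 1, 3, or 4 (1.23, 1.21, or 1.42) and without EGFhigh replicate 1 or 2 (1.24 or 1.27). The call of HBEGF was lost without Ctrl replicate 1, 3, or 4 (2.56, 2.31, or 2.45) and without EGFhigh replicate 1, 2, or 3 (2.32, 2.53, or 2.50).

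With EGFhigh+EpEX at 6 h the higher HBEGF rested on 1 library. The 4 libraries had 262 (replicate 1), 42.3, 37.0, and 17.6 CPM, against 12.3, 24.4, and 22.3 CPM in Fc, and the lowest lay within the range of Fc. The log2FC of 2.15 ± 0.65 (adjusted p = 0.0431) was 0.71 and not called without replicate 1. It was also not called without Fc replicate 1, 3, or 4 (1.90, 2.33, or 2.30) or in the fit of only the groups compared. The latter called 209 of 12587 genes. EpEX gave 43.9, 83.4, and 24.7 CPM of HBEGF, all above Fc, with a log2FC of 1.39 ± 0.66 (adjusted p = 0.514).

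**Figure D3:**
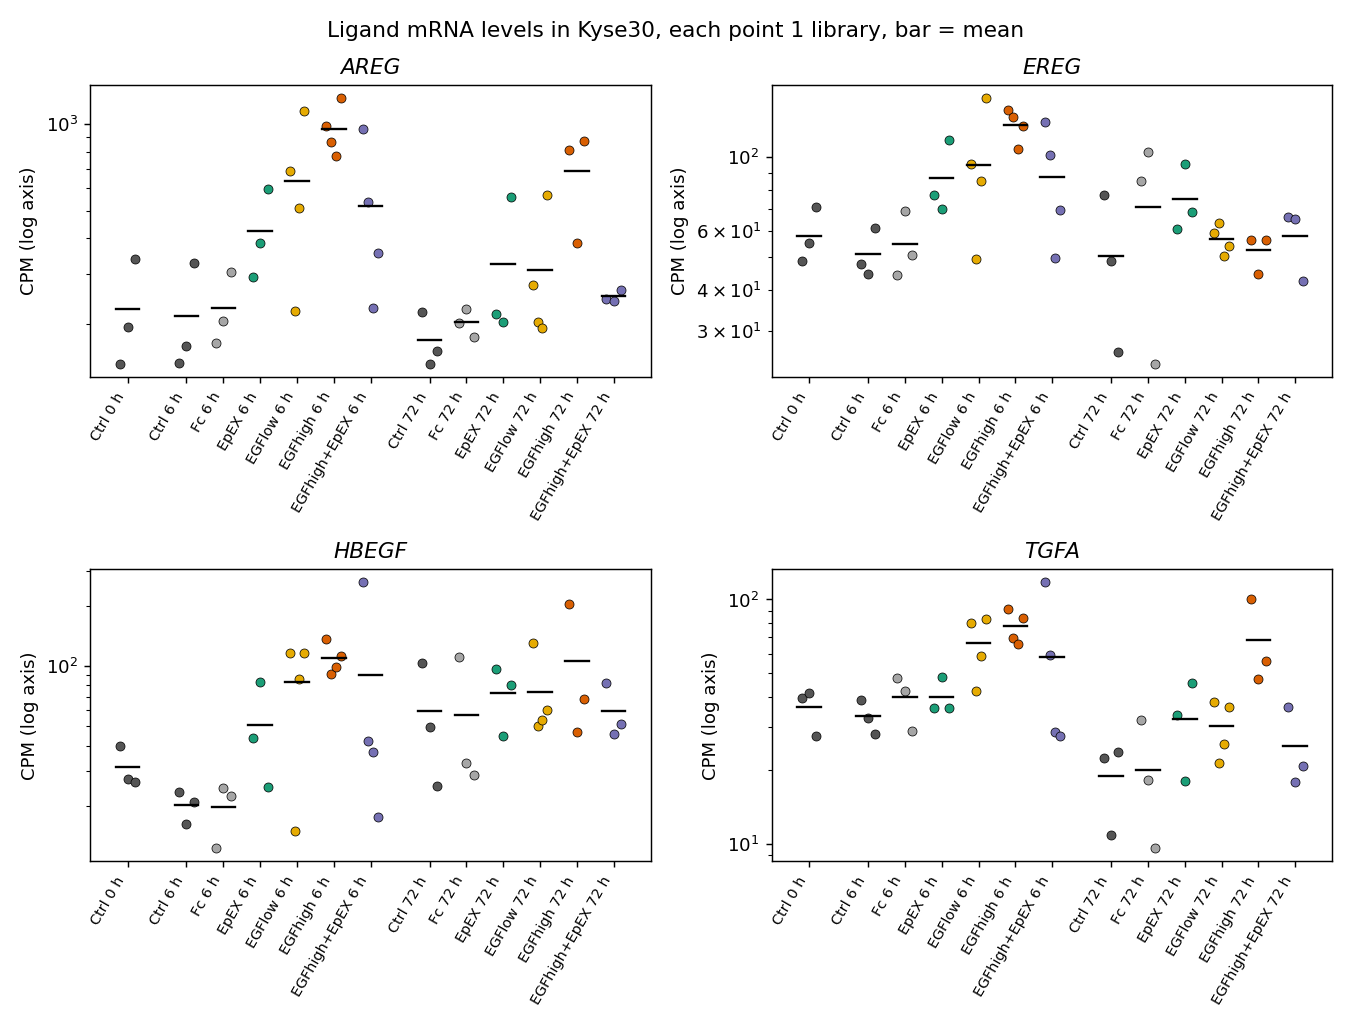
Levels of AREG, EREG, HBEGF, and TGFA (y axis, CPM on a log scale) in each Kyse30 library, grouped by treatment and time (x axis), with bars for group means. The 4 EGFhigh libraries of 6 h lie above all 3 Ctrl libraries of 6 h in each of the 4 genes, and replicate 1 of EGFhigh+EpEX stands at 262 CPM of HBEGF.

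TGFA, a ligand of EGFR, passed the threshold with EGFhigh at 72 h. At 6 h it was 38.9, 32.8, and 28.0 CPM in Ctrl and 91.7, 69.3, 65.9, and 84.2 CPM with EGFhigh, which did not overlap and missed the threshold (1.21 ± 0.39, adjusted p = 0.084, and 0.0338 by DESeq2). With EGFlow at 6 h TGFA was 80.4, 42.2, 58.4, and 83.2 CPM, also above every Ctrl library (0.97 ± 0.38, adjusted p = 0.218 by edgeR). At 72 h it was 22.3, 10.9, and 23.8 CPM in Ctrl and 101, 47.3, and 55.9 CPM with EGFhigh (1.79 ± 0.41, adjusted p = 0.00465), a 3.46-fold difference. This call was lost without Ctrl replicate 2 (1.53). The responses at both times did not differ detectably (0.58 ± 0.55, adjusted p = 0.704).

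AREG was also higher with EGFhigh at 72 h, with 813, 384, and 871 CPM against 221, 146, and 162 CPM in Ctrl. The log2FC was 1.93 ± 0.46 (adjusted p = 0.00597) and stayed called without any 1 library. EREG at 72 h was 56.6, 44.6, and 56.4 CPM with EGFhigh and 77.0, 49.0, and 26.0 CPM in Ctrl, which overlapped (0.01 ± 0.36). HBEGF at 72 h was 204, 46.7, and 68.2 CPM with EGFhigh and 104, 49.3, and 25.2 CPM in Ctrl, with replicate 1 the highest of both groups (0.78 ± 0.63, adjusted p = 0.548). The changes of the responses from 6 to 72 h were -0.23 ± 0.61 for AREG, -1.26 ± 0.49 for EREG, and -1.65 ± 0.88 for HBEGF, and none was called.

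With EGFhigh+EpEX at 72 h the ligands were near Fc. AREG was 246, 242, and 263 CPM against 202, 227, and 180 CPM in Fc, a narrow but complete separation (0.30 ± 0.44, adjusted p = 1.0). Against EGFhigh alone it was lower in all 3 libraries, with a log2FC of -1.42 ± 0.45 that missed the threshold (adjusted p = 0.0681). TGFA was 36.4, 17.9, and 20.8 CPM against 32.1, 18.3, and 9.58 CPM in Fc. EGFlow and EpEX at 72 h gave TGFA of 37.9, 21.3, 25.5, and 36.3 CPM and of 33.8, 18.0, and 45.5 CPM, which overlapped their controls.

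BTC and EPGN gave no call in Kyse30. BTC ranged from 0 to 44 counts per library and EPGN from 0 to 37. The lowest and highest group means of BTC were 0.340 CPM (Fc at 6 h, with 0, 2, and 4 counts) and 3.35 CPM (EpEX at 6 h, with 44, 7, and 5 counts), and the log2FC of 3.27 ± 1.04 had an adjusted p of 0.241. EPGN group means ranged from 0.152 to 2.87 CPM. Differences in these ligands were not detected, and low level, spread between libraries, and depth cannot be told apart here.

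In FaDu replicates 3 and 4, 16022 genes and 8 members were tested, since EPGN did not pass the filter. Each group compared had 2 libraries. At 6 h, EGFlow had 4 members called, all up (AREG, EREG, HBEGF, and EGFR), beside 3.45% of all genes. EGFhigh had 3 called, all up (AREG, EREG, and HBEGF), beside 3.06%. EpEX had 5 called, all up (AREG, EREG, HBEGF, TGFA, and EGFR), beside 3.5%. The median log2FC of the 8 members was 0.85, 0.83, and 1.00 in this order, against -0.02 to -0.01 for all genes.

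AREG in FaDu was 28.2 and 45.6 CPM in Ctrl and 16.3 and 27.4 CPM in Fc at 6 h. It was 273 and 592 CPM with EGFlow, 231 and 592 CPM with EGFhigh, and 343 and 665 CPM with EpEX, so every treated library exceeded every control. The log2FC values were 3.55 ± 0.46 (adjusted p = 0.000149), 3.49 ± 0.46 (adjusted p = 0.000223), and 4.54 ± 0.49 (adjusted p = 1.92e-05). EpEX thus gave 23.3 times the level of Fc.

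HBEGF was 14.6 and 20.7 CPM in Ctrl and 16.96 and 17.6 CPM in Fc. It was 179 and 211 CPM with EGFlow, 124 and 188 CPM with EGFhigh, and 173 and 280 CPM with EpEX. The log2FC values were 3.47 ± 0.41, 3.16 ± 0.41, and 3.74 ± 0.42, with adjusted p-values of 5.59e-05, 0.000171, and 2.72e-05. EREG was 0.356 and 2.28 CPM in Ctrl, where replicate 3 had 3 counts, and 1.02 and 2.58 CPM in Fc. It was 16.1 and 39.6 CPM with EGFlow, 17.4 and 37.6 CPM with EGFhigh, and 27.9 and 50.04 CPM with EpEX (4.39 ± 0.67, 4.38 ± 0.67, and 4.42 ± 0.65). All of these calls of AREG, EREG, and HBEGF stayed without any 1 library, in fits where the lone library of an arm is taken to vary like the others, with log2FC values from 2.66 to 6.24.

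Smaller log2FC values were measured for EGFR and TGFA. EGFR was 527 and 614 CPM in Ctrl and 834 and 959 CPM with EGFlow (0.66 ± 0.17, adjusted p = 0.0366), 797 and 799 CPM with EGFhigh (0.50 ± 0.17, adjusted p = 0.149), and 754 and 991 CPM with EpEX against 529 and 576 CPM in Fc (0.68 ± 0.17, adjusted p = 0.0297). TGFA was 16.2 and 20.5 CPM in Fc and 37.9 and 52.7 CPM with EpEX (1.33 ± 0.32, adjusted p = 0.026). It was 12.0 and 22.1 CPM in Ctrl, 31.1 and 39.0 CPM with EGFlow (1.04 ± 0.32, adjusted p = 0.0911), and 27.2 and 41.3 CPM with EGFhigh (1.01 ± 0.32, adjusted p = 0.112), without a call although the groups did not overlap. ERBB3, at 37.9 and 48.2 CPM in Ctrl, was 29.5 and 25.6 CPM with EGFhigh and 33.4 and 29.3 CPM with EGFlow, below Ctrl in each case without a call (-0.63 ± 0.22 and -0.45 ± 0.22). The call of EGFR with EGFlow was lost without any 1 of its 4 libraries (0.54 to 0.78). With EpEX, the calls of EGFR and TGFA were lost without Fc replicate 3 (0.62 and 1.17), Fc replicate 4 (0.77 and 1.53), or EpEX replicate 4 (0.47 and 1.06), and that of EGFR also in the fit of only the groups compared (0.68).

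EpEX against EGFhigh in FaDu at 6 h, added after the values had been seen, had 0 of 8 members and 0% of genes called by edgeR, 0 members at an unadjusted p under 0.05, and 0 members called by DESeq2. AREG differed by 0.30 ± 0.41 and HBEGF by 0.55 ± 0.37. EpEX and EGFhigh had different controls, so this compares treated libraries directly.

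At 72 h only EGFhigh+EpEX and Fc had 2 FaDu libraries each. TGFA was the 1 member called, beside 0.818% of all genes, with 27.6 and 47.0 CPM against 10.3 and 11.2 CPM (1.78 ± 0.33, adjusted p = 0.0134). This call was lost without Fc replicate 3 or 4 (1.71 or 1.85) and without EGFhigh+EpEX replicate 4 (1.36). The other treatments had 1 library each and were not tested. In the EGFhigh library HBEGF was 221 CPM, AREG 193 CPM, and TGFA 102 CPM, against 8.95, 6.17, and 18.6 CPM in the Ctrl library. The same ligands were at 4.58, 6.11, and 20.3 CPM in the EpEX library and at 30.4, 64.5, and 28.5 CPM in the EGFlow library. At 6 h the 1 EGFhigh+EpEX library had 32.1 CPM of HBEGF, 87.97 CPM of AREG, and 23.3 CPM of TGFA. EGFR was 801 CPM in the same EGFhigh library and 300.4 CPM in Ctrl, whereas the Kyse30 libraries of EGFhigh at 72 h were below their control.

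**Figure D4:**
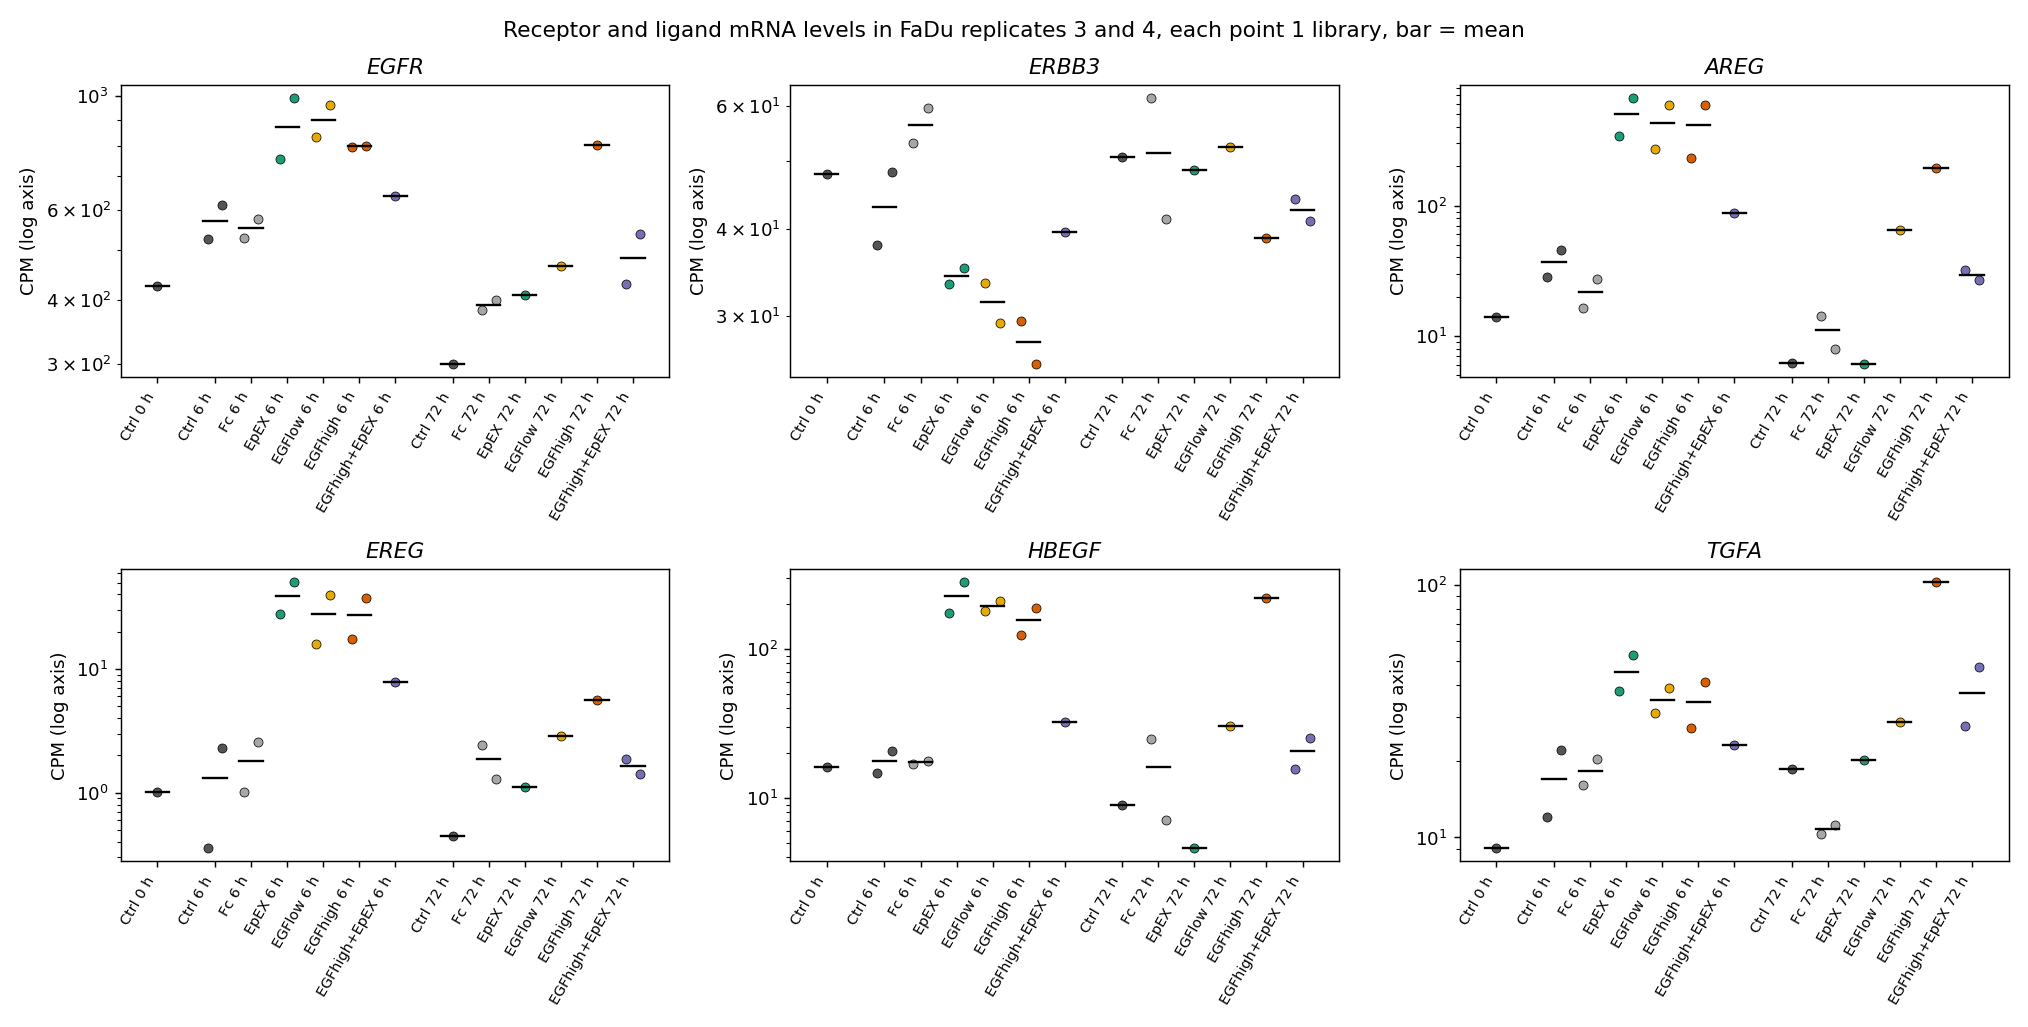
Levels of EGFR, ERBB3, AREG, EREG, HBEGF, and TGFA (y axis, CPM on a log scale) in each FaDu library of replicates 3 and 4, grouped by treatment and time (x axis), with bars for group means. AREG lies between 231 and 665 CPM in the 6 libraries of EGFlow, EGFhigh, and EpEX at 6 h and between 16.3 and 45.6 CPM in those of Ctrl and Fc.

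With all 41 libraries labelled FaDu in the fit, 0 of these 13 calls remained. Over all genes, that fit called 0 of 18533 in each of these comparisons. The reported fit called 553 with EGFlow, 491 with EGFhigh, and 560 with EpEX at 6 h, and 131 with EGFhigh+EpEX at 72 h. At 6 h the EpEX group gained only replicate 2 in this fit, and the EGFlow group only replicate 1. The log2FC of AREG was then 3.13 ± 1.66 with EGFlow and 2.65 ± 1.57 with EGFhigh and turned to -1.85 ± 1.69 with EpEX. That of HBEGF was 2.50 ± 1.37, 1.77 ± 1.29, and 2.68 ± 1.38, and that of EREG 1.302 ± 1.61, 0.88 ± 1.51, and 1.71 ± 1.61. EGFR turned to -0.45 ± 1.15 with EGFlow and was 0.46 ± 1.13 with EpEX. TGFA turned to -0.14 ± 1.19 with EpEX and was 0.32 ± 1.28 with EGFhigh+EpEX at 72 h.

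The lines were compared over 19634 genes in Ctrl at 6 h. Of the 9 members, 3 were called, all lower in FaDu, beside 22.4% of all genes. EREG was lower by a log2FC of -5.26 ± 0.61 (adjusted p = 9.54e-10), AREG by -2.54 ± 0.55 (adjusted p = 0.000356), and EGFR by -1.47 ± 0.21 (adjusted p = 1.27e-07). EGFR was thus 2.76-fold higher in Kyse30. HBEGF had 17.6 ± 4.27 CPM (SD, n = 2) in FaDu and 20.2 ± 3.68 CPM (n = 3) in Kyse30, which overlapped (-0.19 ± 0.70). ERBB2 differed by 0.20 ± 0.36 and ERBB3 by -0.50 ± 0.32. Cell line and set of libraries cannot be told apart here. With all FaDu libraries none of the 3 passed, at -2.82 for EREG, -2.68 for AREG, and -0.96 for EGFR. That fit called 953 of 19519 genes, where the reported one called 4400.

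The response of EREG to EGFlow at 6 h was larger in FaDu by 3.49 ± 0.70 on the log2 scale (adjusted p = 0.012). It was the 1 member called in this test of the difference between lines, beside 0.112% of all genes. EREG reached 16.1 and 39.6 CPM in FaDu with EGFlow but 95.6, 49.5, 84.8, and 151 CPM in Kyse30. In Ctrl it was 0.356 and 2.28 CPM in FaDu (3 and 19 counts) and 47.8, 44.5, and 61.2 CPM in Kyse30. The Fc libraries of FaDu had 8 and 25 counts. The FaDu controls were thus near the limit of the libraries, so the log2 differences of EREG rest on few counts. For EGFhigh, 0 members passed by edgeR beside 0.0611% of genes, 1 had an unadjusted p under 0.05, and DESeq2 called 1, EREG (3.08 ± 0.70, adjusted p = 0.0798 by edgeR). For EpEX, in a test added after the values had been seen, 2 members were called, both with the larger response in FaDu, beside 0.127% of genes. AREG differed by 3.63 ± 0.73 (adjusted p = 0.00849) and EREG by 3.74 ± 0.70 (adjusted p = 0.00384).

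In fits of only the groups compared, the difference for EREG with EGFlow was not called without Kyse30 Ctrl replicate 1, 3, or 4 (3.54, 3.59, or 3.36), Kyse30 EGFlow replicate 1 or 3 (3.50 or 3.44), FaDu Ctrl replicate 3 (2.71), or FaDu EGFlow replicate 4 (2.73), and it was 5.36 without FaDu Ctrl replicate 4. With all FaDu libraries it was 0.48 ± 1.55 and not called, beside 2 of 19519 genes called. For EpEX, AREG then turned to -2.67 ± 1.76 and EREG was 1.10 ± 1.60, where 0 of 19519 genes were called.

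Other genes of the pathway were taken from fixed lists. Of 11 genes for ligand shedding and transport, 8 receptor adaptors, and 13 tested genes of receptor turnover and inhibition, 0 were called by edgeR with EGFlow, EGFhigh, or EpEX in Kyse30 at 6 h. In the order of the lists, 4, 1, and 1 had an unadjusted p under 0.05 with EGFlow, 1, 1, and 2 with EGFhigh, and 1, 1, and 0 with EpEX. EGFhigh+EpEX at 6 h, with 4.52% of all genes called, had RHBDF2, an inactive rhomboid that carries ADAM17 to the surface, and the protease ADAM15 higher (1.43 ± 0.33 and 1.27 ± 0.36) and the docking protein GAB1 lower (-1.76 ± 0.50). With EGFhigh at 72 h, where 6.2% of all genes were called, 1 gene of each of these lists was called up, the metalloprotease NRDC (0.83 ± 0.20), the adaptor SHC1 (0.76 ± 0.22), and SH3KBP1, a partner of CBL (1.17 ± 0.23). The median log2FC of these 3 lists with EGFhigh at 72 h was 0.27, 0.05, and 0.05, against -0.03 for all genes. In FaDu at 6 h ERRFI1, a feedback inhibitor of EGFR, rose with EGFlow, EGFhigh, and EpEX (1.25 ± 0.25, 1.21 ± 0.25, and 1.48 ± 0.26), and CBL rose with EpEX (0.88 ± 0.23), out of 14 turnover genes, beside 3.45%, 3.06%, and 3.5% of all genes called. Between the lines in Ctrl at 6 h, where 22.4% of all genes were called, 4 of 11 shedding genes were lower in FaDu, led by the proteases RHBDL2 and ADAM8 (-5.86 and -2.17), and 3 of 14 turnover genes were higher, led by LRIG1 and RNF41 (5.29 and 1.05), beside 0 of 8 adaptors.

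Of 6 further family genes, ERBB4 and EGF itself had a median of 0 CPM in both lines, and 2 (NRG1 and NRG4) were tested in Kyse30. NRG1, a neuregulin that binds ERBB3, fell with EGFhigh at 72 h (-3.31 ± 0.65, adjusted p = 0.00076). It was higher with EGFhigh+EpEX than with EGFhigh (3.62 ± 0.65, adjusted p = 0.000577) and higher with EpEX than with EGFhigh (3.24 ± 0.65, adjusted p = 0.00115). At 6 h NRG1 was not called in Kyse30 (0.62 ± 0.53 with EGFhigh), and in FaDu it rose with EGFlow (2.13 ± 0.57, adjusted p = 0.0482) and EGFhigh (2.38 ± 0.57, adjusted p = 0.0271).

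Of 8 squamous markers, 2 (KRT17 and SFN) were called up with EGFhigh at 72 h in Kyse30 (2.21 ± 0.54 and 1.67 ± 0.35) and with EGFhigh+EpEX at 6 h (2.69 ± 0.57 and 1.57 ± 0.34), and both were called up with EGFlow, EGFhigh, and EpEX at 6 h in FaDu (KRT17 2.15, 2.09, and 2.42), beside CDH1 with EGFlow (1.198). With EGFhigh+EpEX at 72 h in FaDu, the comparison in which TGFA was called, KRT5 and KRT17 were called down (-2.13 ± 0.31 and -1.05 ± 0.21). Between the lines in Ctrl at 6 h, 4 squamous markers were higher in FaDu, led by KRT17 and KRT5 (7.37 and 5.88), and 2 were lower, CDH1 and SFN (-1.84 and -1.29). Of the tested immune markers, CD68 was called up with EGFhigh at 72 h in Kyse30 (4.15, adjusted p = 0.0462), where the summed immune markers stayed at or below 12.5 CPM. The part of these markers in the results was not tested.

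Across the 13 Kyse30 group means of log2 CPM, the members did not follow 1 pattern. AREG went most closely with TGFA (r = 0.88) and EREG (r = 0.77), and ERBB3 went with ERBB2 (r = 0.82) and against EREG (r = -0.89). EGFR went against TGFA (r = -0.67). Among 10228 genes with a mean of at least 5 CPM, the closest to EGFR were PLXNA1 and VAV2 (r = 0.96 and 0.95), and to AREG HS3ST1, GNA15, and CDCP1 (r = 0.945, 0.945, and 0.944). EREG was closest to F3, NUP50-DT, and FERMT2 (r = 0.96, 0.94, and 0.93), HBEGF to VEGFA, METRNL, and CEBPB (r = 0.94, 0.94, and 0.93), and TGFA to ESRP2, DDIT4, and PPP2R2A (r = 0.98, 0.96, and 0.96). The points share controls, libraries, and depth, so these values only describe the groups.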

How the data were processed

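Total RNA of Kyse30 and FaDu cells was sequenced in 84 libraries from the 3′ ends of transcripts. The authors aligned reads to GRCh38 (hg38) and deposited raw read counts per gene for each library, with STAR and HTSeq named in the submitters' processing notes. Versions and the strand setting are not given in the sources used here. Gene symbols were matched for 58275 of 58395 identifiers with GENCODE release 29.

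Groups were taken from the labels. From the deposited counts, genes were filtered with edgeR's filterByExpr (minimum count 10, minimum total 15), scaled by TMM and tested with edgeR's quasi-likelihood test (edgeR 4.0.16, R 4.3.3) over all groups of a line, with Benjamini-Hochberg adjustment over all genes tested. CPM are TMM-scaled over 63 libraries, and log2 CPM used a prior count of 2. Thresholds of a DEG were 0.05 for the adjusted p and 0.5 for the absolute log2FC. Standard errors were the absolute log2FC divided by the square root of F. Correlations of patterns used 13 group means and genes of at least 5 CPM.

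The members and lists were chosen with earlier results of these data known. All 9 members were named, together with the called list genes of the largest change (2 per list and comparison) and the 3 genes most like each of 5 members, of which 1 is not reported here. Alternatives were DESeq2 1.42.0, RLE scaling, no filter, a mean of at least 5 CPM, the replicate number as a block, only the groups compared, Ctrl and Fc together, all FaDu libraries, and 94 fits without 1 library. The fits were tested on simulated data. Promoter windows came from RefSeq (GRCh38.p14).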

Additional observations from a re-analysis of the deposited data

Results flagged for a closer look

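In 3 of 36 groups of 4 libraries and members tested, 1 library stood far from the others, where chance gives about 1 in 20. HBEGF was 262 CPM in replicate 1 of EGFhigh+EpEX at 6 h in Kyse30, against 17.6 to 42.3 CPM in the others. HBEGF was 131 CPM in replicate 1 of EGFlow at 72 h in Kyse30, against 50.3 to 60.5 CPM. BTC was 4.34 CPM in replicate 2 of EGFlow at 6 h in Kyse30, against 0.769 to 1.17 CPM.

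Responses differed between groups by a test of the difference itself (edgeR) in 5 results. In Kyse30 the log2FC with EGFhigh was higher at 72 h than at 6 h by 1.64 for ERBB3 (adjusted p = 0.036) and differed by -1.47 for EGFR (adjusted p = 0.00106). The log2FC was larger in FaDu than in Kyse30 by 3.49 for EREG with EGFlow (adjusted p = 0.012), by 3.63 for AREG with EpEX (adjusted p = 0.00849), and by 3.74 for EREG with EpEX (adjusted p = 0.00384). In 2 further results every library moved the opposite way between groups, and the difference was not tested. EGFR with EpEX in Kyse30 had a log2FC of 0.56 at 6 h and -0.38 at 72 h, and EGFR with EGFhigh+EpEX at 72 h had -0.29 in Kyse30 and 0.29 in FaDu.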

How the results depend on the processing

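The 6 member calls in Kyse30 at 6 h became 15 without the filter on low counts, 11 with the replicate block and 12 with Ctrl and Fc together, and ranged from 3 to 9 without single libraries. The 3 calls at 72 h ranged from 2 to 3. The 4 calls between treatments became 12 without the filter and 1 with only the groups compared, and ranged from 0 to 5 without single libraries. The 1 call over time in Ctrl became 2 without the filter and 2 with only the groups compared. The 13 FaDu calls ranged from 11 to 13 without single libraries and were 0 with all FaDu libraries. The 4 calls between the lines became 8 without the filter and 0 with all FaDu libraries, and ranged from 3 to 6. The 4 calls of the added tests became 7 without the filter and ranged from 3 to 5. Those of AREG and EREG with EpEX between the lines were both lost with all FaDu libraries, where 0 of 19519 genes were called. Those of EGFR and ERBB3 use Kyse30 libraries alone and were not refitted in that setting. With all FaDu libraries the sign turned for EGFR with EGFlow (-0.45 ± 1.15), AREG with EpEX (-1.85 ± 1.69), and TGFA with EpEX (-0.14 ± 1.19). It also turned for AREG in the difference of lines with EpEX (-2.67 ± 1.76). None of these was called, and the cause was not tested.

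Over all genes in Kyse30 at 6 h, the 391 calls with EGFhigh became 673 by DESeq2, 636 with the block, and 1105 with Ctrl and Fc together. The 230 with EGFlow became 413, 417, and 776, and the 4 with EpEX became 83, 48, and 106. Without the filter on low counts, 27643 genes were tested in place of 15350. Calls at 6 h were then 581 with EGFhigh, 399 with EGFlow, 105 with EpEX, and 943 with EGFhigh+EpEX. With only the groups compared, 951 calls with EGFhigh at 72 h became 502 and 694 with EGFhigh+EpEX at 6 h became 209. In FaDu 560 with EpEX became 232. Without the filter, the 573, 550, and 734 calls between treatments of Kyse30 at 72 h became 779, 790, and 939. The 238 over time in Ctrl became 407, and the 155 between the responses to EGFhigh at both times 401. Between the lines 31000 genes were then tested, and the 4400 calls in Ctrl became 4172. Those for the responses to EGFlow, EGFhigh, and EpEX rose from 22, 12, and 25 to 88, 70, and 97.

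The replicate numbers were not taken as pairs, since not every pair of the same number correlated by over 0.1 over all genes. That rule cannot decide whether a replicate effect is present. Deviations from group means correlated by 0.0619 on average between Kyse30 libraries of the same number, and 62 of 217 pairs exceeded 0.1, and by 0.0751 in FaDu, with 16 of 42 pairs. Between libraries of other numbers the averages were -0.0211 and -0.0751. In FaDu, with 2 libraries per group, the second value mirrors the first. The reported tests have no block, so any part shared by a replicate number stays in their spread. In FaDu at 6 h AREG, EREG, HBEGF, TGFA, EGFR, and ERBB2 were each higher in replicate 4 than in replicate 3 in 5 of 5 groups, and in Kyse30 replicate 4 had the highest AREG in 9 of 10 groups and the highest HBEGF in 0 of 10. With the replicate block, edgeR also called TGFA in FaDu at 6 h with EGFlow (1.09, adjusted p = 0.00687) and EGFhigh (1.03, adjusted p = 0.00988), and EGFR with EGFhigh (0.50, adjusted p = 0.0383). In Kyse30 at 6 h the block added AREG, HBEGF, and EGFR with EGFlow (adjusted p = 0.00402, 0.0167, and 0.0434). It also added TGFA with EGFhigh (0.0118) and AREG with EGFhigh+EpEX (0.00831). At 72 h it added AREG in EGFhigh against EGFlow (0.0268) and in EpEX against EGFhigh (0.0425). BTC and EPGN had medians under 2 CPM in Kyse30, and what limited their detection was not tested.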
